A study of Mus musculus with 4 samples.

Results

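Lysosomal hydrolases, lysosomal membrane proteins and the transcription factors of the TFEB family were followed in myeloid cells sorted from mouse skin tumours. The set holds 37 of the 23420 genes in the table, chosen by name and function, and leaves out the cathepsins B, C, D, F, H, K, L, S and Z. A member had to reach a normalised read count of at least 10 in at least 2 of the 4 libraries to be tested, and all 37 did. The lowest value of any member in any library was 441, so none passed through 1 group alone. Of the whole table, 12463 genes met the same minimum and were tested.

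The cells were CD11b and CD200R1 positive cells, sorted by flow cytometry from squamous cell carcinomas grown orthotopically in the skin, strain FVB/N. CD200R1 is the inhibitory receptor for the surface protein CD200. The 2 WT libraries came from tumours labelled wild type, with CD200 present on the tumour. The 2 EpiKO libraries came from tumours labelled K14Cre;CD200fl/fl, in which a Cre recombinase under the keratin 14 promoter of basal epithelial cells removes Cd200 from the epidermis. The myeloid cells were thus not the cells in which the Cre was directed to act. Age, sex and any Cre or floxed allele of the WT animals are not stated in the labels, and replicate numbers only follow the order of the samples. Whether the 2 libraries of a group came from separate mice is also unstated, so p-values cover only how far these samples spread, and that spread may be technical. The comparison asks which transcripts of the sorted cells differ when the tumour lacks CD200.

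Lysosomes take up material from endocytosis, phagocytosis and autophagy and break it down with acid hydrolases. Most of these soluble enzymes reach the lysosome by a mannose 6-phosphate tag, while heavily glycosylated membrane proteins such as LAMP1 and LAMP2 line its inner face. Transcription of many lysosomal genes is raised by TFEB, TFE3 and their relatives, which bind E-box letters in the so-called CLEAR element when the kinase mTORC1 is not active at the lysosome. In macrophages the system digests engulfed cells and lipoproteins, and in osteoclasts it works together with secreted acid and cathepsin K on bone matrix.

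Depth was 15884132 to 21244158 reads assigned to genes per library. None of the 8 markers of the sorted cells was at 0 in any library. Csf1r, the receptor for macrophage growth factor, stood at 45316 to 70480.3, and Itgam, which encodes CD11b, at 26151 to 40692. Cd200r1, the other gene of the gate, was at 318 and 293 in WT against 1101 and 612 in EpiKO, higher in both EpiKO libraries (log2 fold change 1.43 with an adjusted p of 0.115 by limma and of 2.44e-04 by DESeq2). Cd3e, Cd3d, Cd3g, Cd8a, Cd79a and Pax5, defining genes of T and B cells, were at 0 to 2.32 in every library. Most of the T and NK cell sum of 196 to 1923 was Cd4, at 100.1 to 1755, and most of the B cell sum of 20.5 to 82.3 was Cd79b, at 19.4 to 76.5. Dendritic and Langerhans cell markers summed to 4252 to 5822 in WT against 4022 to 5211 in EpiKO, and among them Cd207, the Langerhans cell lectin, fell, with 1201 and 590.1 in WT against 23.7 and 23.6 in EpiKO (adjusted p = 0.0329 by limma). Neutrophil markers summed to 1320.2 to 2659 in WT against 768 to 1585 in EpiKO. The 12 keratinocyte markers summed to 5377 in WT replicate 1 and to 53.9 to 114 in the other libraries. The 10 fibroblast markers summed to 43863 and 30207 in WT and to 21402 and 38295 in EpiKO. Because lysosomal genes are active in nearly every cell type, these sums stand beside all results below, and their part in them was not tested.

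The E-box core of the CLEAR element is CACGTG, and a longer form of 8 letters is TCACGTGA. The shorter form lies within the longer one, and each is its own reverse complement, so each match counts for both strands. RefSeq promoter windows on GRCm38.p6, from 250 bases before to 50 bases after a start, were found for 34 of the 37 members, all but Asah1, Galns and Npc1. The 6-letter core was present for 9 of these 34 members, Arsa, Cln3, Ctsa, Gaa, Gla, Glb1, Lamp1, Naglu and Sgsh. By promoter, that was 9 of 40 windows, or 22.5%, against 7.15% of 32851 windows of the same length over all genes. By gene, it was 26.5% of the members with a window against 11.8% of 9287 tested genes, the closer background, since all members were tested genes. The 8-letter form occurred for Cln3, Ctsa and Gla, in 7.50% of the members' windows against 0.974% of all windows, or by gene 8.82% of the members against 2.19% of tested genes. The CLEAR element is described for lysosomal genes, the class from which the members were chosen. These shares are thus not independent of that choice, and they were not tested. The runs below are shown because Lamp1, Cln3, Gla and Ctsa each held more than 1 match near their start. Capitals mark the matches, positions count back from the start, and the runs are those of the gene's own strand, 5′ to 3′.
Lamp1, plus strand, chr8:13159086-13159160, bases -75 to -1: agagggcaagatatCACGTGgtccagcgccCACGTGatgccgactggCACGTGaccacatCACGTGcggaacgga
Cln3, minus strand, chr7:126583336-126583396, bases -160 to -100: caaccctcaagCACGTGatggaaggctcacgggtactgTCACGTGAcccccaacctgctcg
Gla, minus strand, chrX:134601185-134601245, bases -240 to -180: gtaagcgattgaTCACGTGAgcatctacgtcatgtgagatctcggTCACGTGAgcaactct
Ctsa, plus strand, chr2:164833749-164833778, first capital at base -13: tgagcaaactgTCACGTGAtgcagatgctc
Lamp1 held 4 matches of the 6-letter core in 75 bases, Gla held 2 of the 8-letter form, and Ctsa held a second 8-letter match at base 5, just past the start. A match describes letters only, and binding was not measured. The log2 fold changes of the 9 members with the core ran from -0.51 for Gla to 0.19 for Lamp1 and had both signs.

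Levels can be set against each other only per length, here as the normalised read count per kilobase of all annotated exons, averaged over the 4 libraries. On that scale the members spanned 285-fold. Psap, the precursor of the saposins that present sphingolipids to their hydrolases, was highest at 31040.2. Lamp1 followed at 13852, and Grn, which encodes progranulin, at 10785. Next came Hexa, the alpha subunit of beta-hexosaminidase, at 6380.0, Ctsa, the protective protein cathepsin A, at 5894, and Npc2, which carries cholesterol within the lysosome, at 3043. Hexa was above Ctsa in each of the 4 libraries, though the range of Hexa over libraries overlapped that of Ctsa. At the other end stood Tfeb at 109, Idua, the iduronidase of heparan and dermatan sulfate, at 142, and Tfec at 145. The place of Tfec rested on WT, where it was at 103 and 78.9 per kilobase, against 232 and 166 in EpiKO. Every member had at least 475 reads in every library. Together the members took 1.92% and 1.79% of the WT reads, against 1.76% and 2.16% of the EpiKO reads, so the groups overlapped. In bulk samples such as these, fewer cells of a type and less RNA per cell cannot be told apart.

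**Figure D1:**
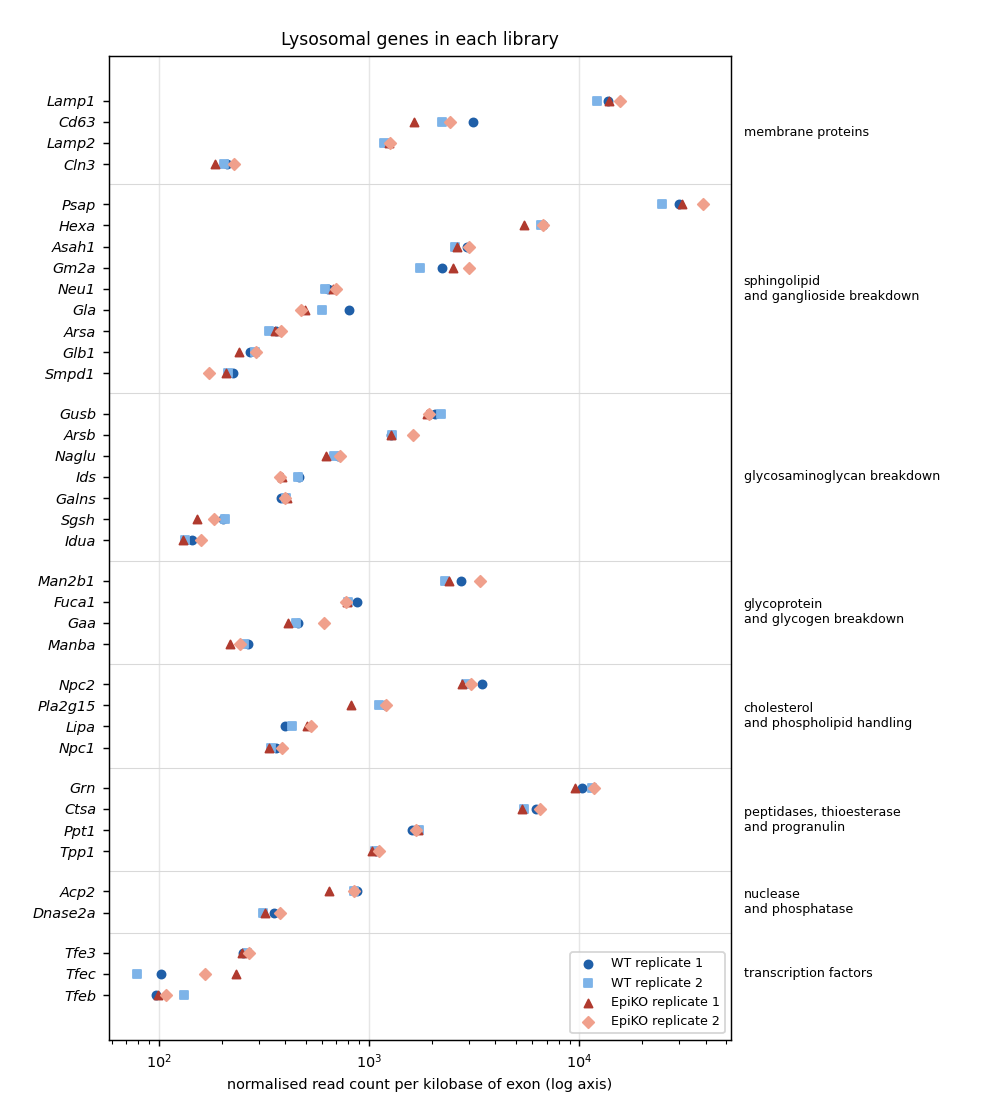
Normalised read count per kilobase of exon (log axis) of the 37 members in each of the 4 libraries, grouped by role. For most genes the 4 symbols lie close together, while Tfec shows both EpiKO libraries to the right of both WT libraries and Gla shows both to the left.

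The log2 fold changes of the 37 lysosomal genes, EpiKO minus WT, ran from -0.51 to 1.12. Of the 37, 29 lay within 0.25 of 0, beside 60.1% of all tested genes. Tfec, Gm2a, Psap and Lipa had the 4 highest values, and Gla and Cd63 the 2 lowest. No member was called higher or lower in EpiKO at a Benjamini-Hochberg adjusted p under 0.05 over all 12463 tested genes (limma), where 0.947% of all tested genes were called. The quasi-likelihood test of edgeR on reads also called none (0.963% of all genes), and the Wald test of DESeq2 called 1, Tfec (6.85% of all genes). At an unadjusted p under 0.05 there were 5 members, Tfec, Gla, Lipa, Ids and Gm2a, or 13.5% against 15.6% of all tested genes. The members' median log2 fold change was 0.0068, beside -0.0021 over all tested genes, with 19 positive and 18 negative. Their median absolute value was 0.12, beside 0.18 over all tested genes, which were not matched to the members for read level. The 2 groups did not overlap for 14 members, 7 higher and 7 lower in EpiKO, which is 37.8% against 47.1% of all tested genes. The shares called, with an unadjusted p under 0.05 or without overlap lay near or below the background, while the share within 0.25 of 0 lay above it.

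A missed threshold does not show that levels were alike, so the intervals are given. The moderated 95% interval of the log2 fold change, not adjusted for the number of genes, lay wholly between -1 and 1, that is within 2-fold either way, for 35 of 37 members. Over all tested genes this held for 69.6%. Those include genes with far fewer reads than any member, and the median SE was 0.14 for the members and 0.17 over all tested genes. The 2 shares are thus not matched for read level. The exceptions were Tfec and Cd63. The half-width of the interval had a median of 0.35 over the members, and 32 of the 37 intervals included 0.

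**Figure D2:**
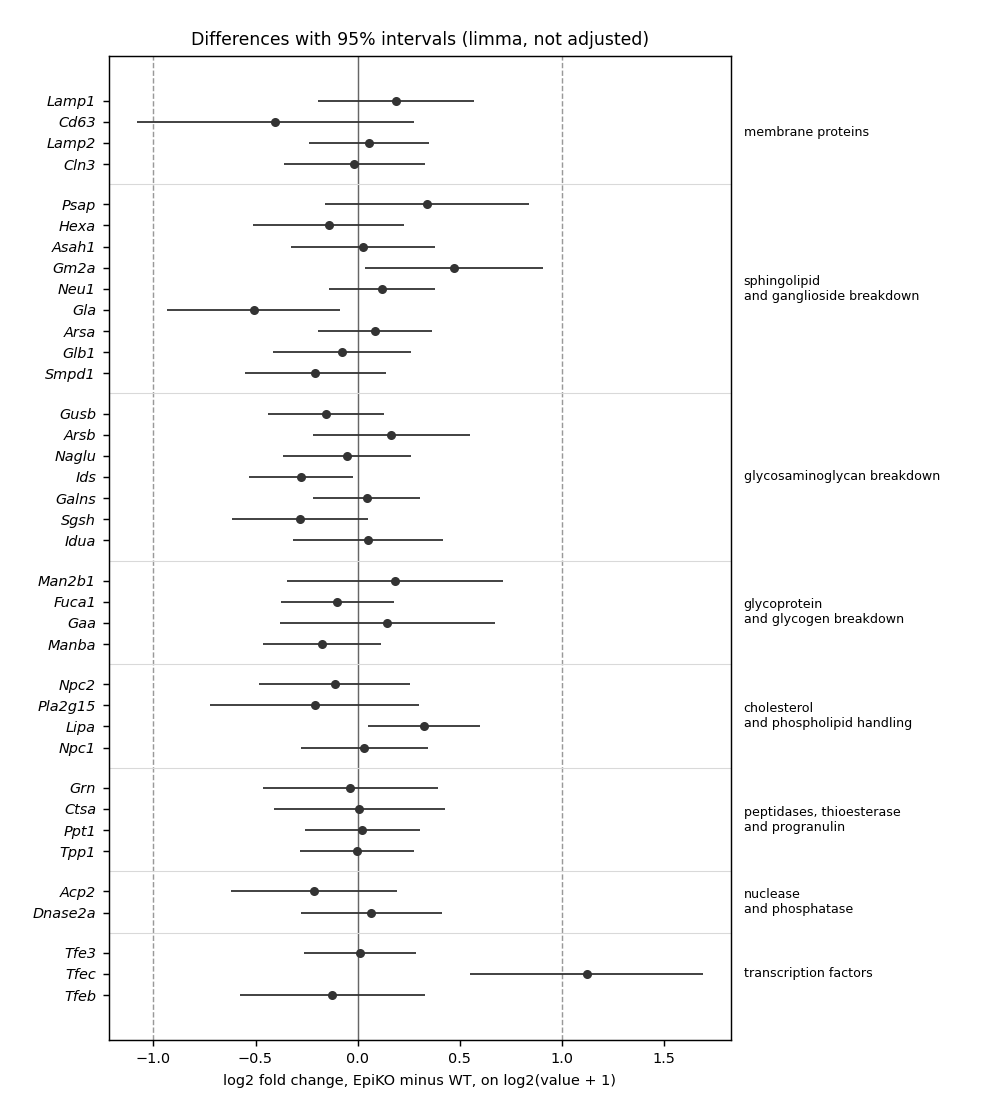
Log2 fold change of each member (EpiKO minus WT, on log2(value + 1)) as a point, with its 95% interval from limma as a line, grouped by role. Dashed lines mark a 2-fold difference either way; 35 of the 37 intervals lie between them, and the interval of Tfec lies furthest to the right.

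Among the transcription factors, Tfec had the largest difference of all members and the smallest p. TFEC belongs with TFEB, TFE3 and MITF to the MiT/TFE family and is found mainly in macrophages and osteoclasts. Its normalised read counts were 576 and 441 in WT against 1298 and 926 in EpiKO. Both EpiKO libraries lay above both WT libraries, and the EpiKO mean of 1112 ± 263 (SD, n = 2) was 2.19 times the WT mean of 509 ± 95.3 (SD, n = 2). The log2 fold change was 1.12 (SE 0.221, 95% interval 0.55 to 1.69), and the adjusted p of 0.106 by limma missed the threshold. DESeq2 gave an adjusted p of 8.58e-04 and edgeR one of 0.0995. With any 1 library left out the log2 fold change was 0.88 to 1.36, with an adjusted p of 0.117 to 0.357 by limma. In mm10 the gene occupies chromosome 6 from 16833373 to 16898441 on the minus strand and overlaps no exon of another gene in the annotation.

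Tfeb and Tfe3 showed no such gap. Tfeb, the best known activator of lysosomal genes, was at 551 and 746 in WT against 561 and 616 in EpiKO, with the EpiKO values between the WT values. Its log2 fold change was -0.12 (95% interval -0.58 to 0.33). Tfe3 was at 2338 and 2447 in WT against 2319.9 and 2505 in EpiKO, at a log2 fold change of 0.011 (95% interval -0.26 to 0.28), with overlapping groups. The remaining family gene Mitf, the melanocyte and osteoclast factor, is no member and was at 1227 and 1236 in WT against 965 and 777 in EpiKO. Both EpiKO values of Mitf were lower, at a log2 fold change of -0.51 (95% interval -0.86 to -0.16, adjusted p = 0.180 by limma). Per kilobase of exon, Tfec in WT stood below Mitf and near Tfeb, and in EpiKO both Tfec libraries stood above both Mitf libraries. Exon lengths over all isoforms were used for this scale, and the isoforms in these cells were not analysed here.

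**Figure D3:**
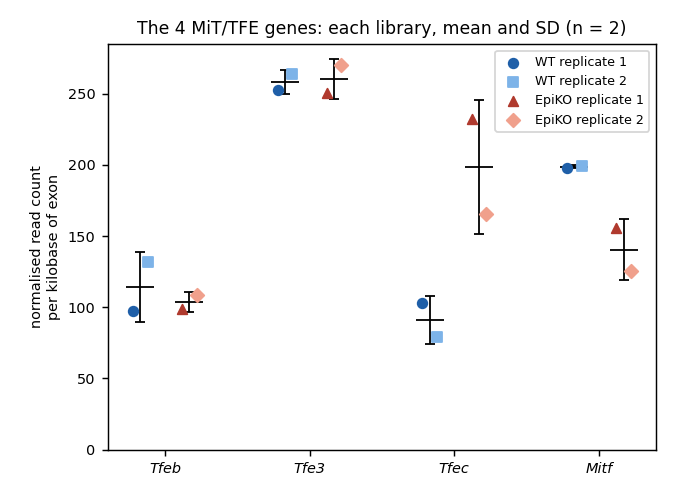
Normalised read count per kilobase of exon of Tfeb, Tfe3, Tfec and Mitf in each library (symbols), with the group mean and SD (n = 2) as black bars. Both EpiKO libraries lie above both WT libraries for Tfec and below them for Mitf, while Tfe3 and Tfeb overlap between the groups.

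The genes of sphingolipid and ganglioside breakdown numbered 9, and their differences pointed both ways, with 5 positive, 4 negative and a median log2 fold change of 0.025. Gla, the alpha-galactosidase A that removes the terminal sugar of globotriaosylceramide and is deficient in Fabry disease, had the most negative value of all members. It was at 2625 and 1948 in WT against 1620.2 and 1557 in EpiKO. The EpiKO libraries were close together and lay below both WT libraries, while the WT libraries were further apart. The WT mean was 1.44 times the EpiKO mean, and the log2 fold change was -0.51 (SE 0.167, 95% interval -0.93 to -0.084, adjusted p = 0.240 by limma). Without WT replicate 1 the log2 fold change was -0.29, and -0.72 to -0.29 was its range over the 4 libraries left out in turn.

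Gm2a, the activator that lifts ganglioside GM2 out of the membrane for beta-hexosaminidase A, went the other way. Its values were 9161 and 7241 in WT against 10330.5 and 12335 in EpiKO, without overlap. The log2 fold change was 0.47 (SE 0.171, 95% interval 0.035 to 0.91, adjusted p = 0.282 by limma), and 0.30 without WT replicate 2. Hexa, whose product acts with that activator, was at 13510.1 and 13146 in WT against 10916 and 13366 in EpiKO, and only EpiKO replicate 1 stood apart, below the rest. Psap was at 82018 and 68103 in WT against 84218 and 106358 in EpiKO. Both of its EpiKO values lay above both WT values, at a log2 fold change of 0.34 (95% interval -0.16 to 0.84), but WT replicate 1 and EpiKO replicate 1 nearly met. That value was 0.14 with quantile normalization, 0.17 without EpiKO replicate 2 and 0.21 without WT replicate 2. Smpd1, the acid sphingomyelinase, was at 756 and 710.3 in WT against 695 and 579 in EpiKO, lower in both EpiKO libraries, though barely so in EpiKO replicate 1. Its log2 fold change was -0.21 (95% interval -0.55 to 0.14). Neu1, the sialidase, had a log2 fold change of 0.12, with both EpiKO libraries above both WT libraries. Arsa, the sulfatidase, was at 0.084 with overlapping groups. Asah1, the acid ceramidase, had a log2 fold change of 0.025, and Glb1, the beta-galactosidase, one of -0.076.

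Glycosaminoglycan breakdown was covered by 7 enzymes that take heparan, dermatan, keratan or chondroitin sulfate apart step by step. The median log2 fold change was -0.051, with 3 positive and 4 negative. Ids, the iduronate 2-sulfatase lost in Hunter syndrome, had the tightest replicates. Its values were 2378 and 2359 in WT against 1974 and 1934 in EpiKO, and both EpiKO libraries lay below both WT libraries. The WT mean was 1.21 times the EpiKO mean, and the log2 fold change was -0.28 (SE 0.0996, 95% interval -0.53 to -0.024, adjusted p = 0.277 by limma). Sgsh, the heparan N-sulfatase, was at 891 and 911 in WT against 675 and 811 in EpiKO, again without overlap but with a wider EpiKO spread (log2 fold change -0.28, 95% interval -0.62 to 0.049). Gusb, the beta-glucuronidase, was at 9434 and 9978 in WT against 8626 and 8801 in EpiKO. It was lower in both EpiKO libraries by a small margin (log2 fold change -0.16, 95% interval -0.44 to 0.13). Idua, the enzyme that acts after the Ids step, was at 607 and 562 in WT against 548 and 670.1 in EpiKO, and the groups overlapped. The other values were 0.17 for Arsb, 0.043 for Galns and -0.051 for Naglu, also log2 fold changes with overlapping groups.

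Enzymes of glycoprotein and glycogen breakdown showed 2 patterns. Manba, the beta-mannosidase, was at 1860.3 and 1777 in WT against 1521 and 1709 in EpiKO, and Fuca1, the alpha-fucosidase, had a log2 fold change of -0.10. For both, the EpiKO libraries lay below the WT libraries by less than their intervals could resolve. Man2b1, the acid alpha-mannosidase, and Gaa, the acid alpha-glucosidase of glycogen, had log2 fold changes of 0.18 and 0.14 with overlapping groups. Their EpiKO libraries were far apart, with EpiKO replicate 2 at 1.40 and 1.48 times EpiKO replicate 1.

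In cholesterol and phospholipid handling, Lipa had the clearest separation. It encodes the acid lipase that frees cholesterol and fatty acids from lipoprotein lipids. The values were 2703 and 2913 in WT against 3432 and 3596 in EpiKO, with both EpiKO libraries above both WT libraries. The EpiKO mean was 1.25 times the WT mean, at a log2 fold change of 0.32 (SE 0.109, 95% interval 0.048 to 0.60, adjusted p = 0.249 by limma). The proteins that carry the freed cholesterol out of the lysosome did not share this gap. Npc2 was at 18687 and 15748 in WT against 15124 and 16632 in EpiKO, and its membrane partner Npc1 had a log2 fold change of 0.032 (95% interval -0.28 to 0.34). Pla2g15, the lysosomal phospholipase A2, had one of -0.21, and EpiKO replicate 2 was 1.46 times EpiKO replicate 1.

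The membrane proteins were abundant in all 4 libraries. Lamp1 was at 36873 and 32442 in WT against 37173 and 41726 in EpiKO. The EpiKO values were the higher ones, by a margin of under 1% between the nearest libraries (log2 fold change 0.19, 95% interval -0.19 to 0.57). Lamp2, its partner in the membrane, had a log2 fold change of 0.055 (95% interval -0.24 to 0.35), with both EpiKO libraries slightly above both WT libraries. Cd63, a tetraspanin of late endosomes and exosomes, had the widest interval of all members. It was at 11470.1 and 8161 in WT against 6004 and 8921 in EpiKO, and EpiKO replicate 2 lay between the WT libraries (log2 fold change -0.40, 95% interval -1.08 to 0.27). Its log2 fold change was -0.16 without WT replicate 1 and -0.12 without EpiKO replicate 1. Cln3, mutated in juvenile neuronal ceroid lipofuscinosis, had a log2 fold change of -0.016.

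The peptidases, the thioesterase and progranulin were the flattest group, with log2 fold changes from -0.036 to 0.022 and overlap for all 4. Grn was at 35874 and 39831 in WT against 33055 and 41112 in EpiKO, with both ends of the range in EpiKO. Ctsa, which keeps neuraminidase and beta-galactosidase stable, was at 29518 and 25852 in WT against 25101 and 30690.1 in EpiKO, again with both ends of the range in EpiKO. Tpp1, the tripeptidyl peptidase, had a log2 fold change of -0.0026 (95% interval -0.28 to 0.28), and Ppt1, the palmitoyl-protein thioesterase, one of 0.022 (95% interval -0.26 to 0.30). Of the last pair of hydrolases, Acp2, the lysosomal acid phosphatase, was at 4555 and 4389 in WT against 3366 and 4409.7 in EpiKO, with only EpiKO replicate 1 apart. Dnase2a, the nuclease that digests DNA of engulfed cells, had a log2 fold change of 0.067 with overlapping groups.

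Annotated exons of 14 of the 37 members overlap those of another gene, 13 of them on the opposite strand, and the strand setting of the counting is not given in the sources examined. If strand was not used, the 2 genes' reads there are indistinguishable. Among the partners found in the data under their annotation symbol, Pltp, Cap1, Apobr, Dgkq (opposite Idua) and Tmppe (same strand as Glb1) had counts within reach of the member's own. The partners of Arsa, Arsb and Npc1 were not found under that symbol, and their counts were not examined. Pltp, the phospholipid transfer protein gene opposite Ctsa, was at 12516 and 14545 in WT against 3556 and 4688 in EpiKO, and its log2 fold change was -1.72 (adjusted p = 0.0381 by limma). Cap1, opposite Ppt1, had a mean 2.78 times that of Ppt1, and Apobr, opposite Cln3, one 2.21 times that of Cln3. The 5 members with an unadjusted p under 0.05 were not among the 14.

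Much of the members' variation lay between libraries of 1 group. EpiKO replicate 2 was above EpiKO replicate 1 for 30 of 37 members, or 81.1%, against 50% of all tested genes (6226 of 12463). WT replicate 1 was above WT replicate 2 for 27 of 37, or 73.0%, against 51.6% of all tested genes. The median absolute log2 difference between the EpiKO libraries was 0.23 over the members and 0.19 over all tested genes. Between the WT libraries it was 0.10 over the members and 0.18 over all tested genes. The difference between the group means exceeded both replicate differences for 11 of 37 members, that is 29.7% beside 34.7% of all tested genes.

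The widest EpiKO gaps belonged to Cd63, Gaa, Pla2g15 and Man2b1, all higher in EpiKO replicate 2. Tfec, Gla, Smpd1, Ids, Fuca1, Galns and Ppt1 went against the majority, with EpiKO replicate 1 the higher. The same direction was seen for the fibroblast markers, of which 10 of 10 were higher in EpiKO replicate 2 and 10 of 10 in WT replicate 1. It was not particular to them. Of the tested dendritic and Langerhans cell markers, 6 of 7 were higher in EpiKO replicate 2 and 6 of 7 in WT replicate 1. Of 18 other lysosomal hydrolases and cofactors, the counts were 12 and 16. The neutrophil markers had 4 of 6 and 0 of 6, and the markers of the sorted cells 3 of 8 and 5 of 8. The tested keratinocyte markers had 1 of 4 and 4 of 4, and the mast cell markers 1 of 5 and 4 of 5. For T and NK cell markers the counts were 3 of 3 and 2 of 3, and for endothelial markers 3 of 5 and 4 of 5. The 1 tested B cell marker was higher in EpiKO replicate 2 and in WT replicate 1. Among the markers of the sorted cells, Csf1r was at 45316 and 70480.3 in the EpiKO libraries and Itgam at 40692 and 30075, in opposite directions. The part of other cells in the members' replicate differences was not tested.

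**Figure D4:**
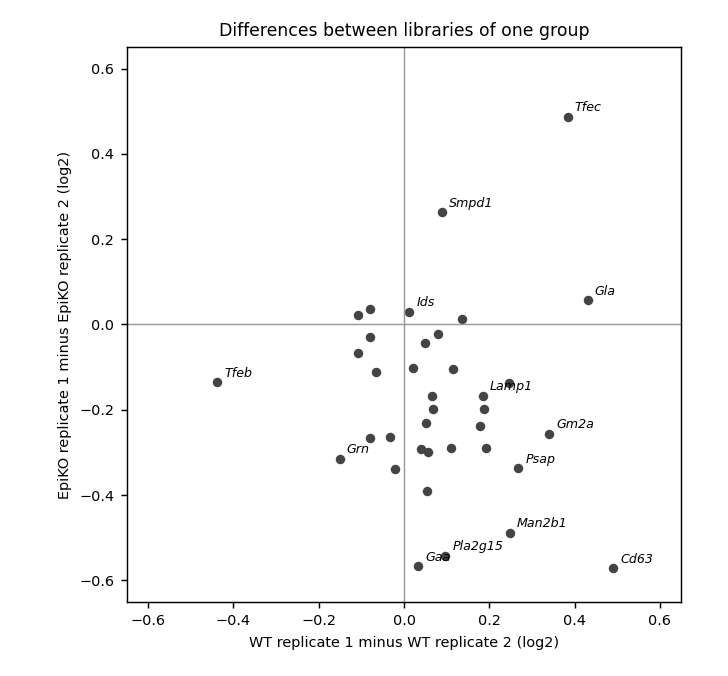
Log2 difference between the 2 EpiKO libraries (vertical axis) against that between the 2 WT libraries (horizontal axis) for the 37 members, 1 point a gene. Most points lie below the horizontal zero line, since 30 members were higher in EpiKO replicate 2, and right of the vertical zero line, since 27 were higher in WT replicate 1.

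Other genes of the lysosomal pathway were read from separate lists. Over all tested genes, limma called 0.947%, edgeR 0.963% and DESeq2 6.85%, and 15.6% had an unadjusted p under 0.05. Among 18 further hydrolases and cofactors 1 rose and 17 did not pass. The gene that rose was Arsg, a sulfatase of heparan sulfate, which is in no member list. It was at 170.4 and 178 in WT against 452 and 427 in EpiKO, with close replicates in both groups and no overlap. Its log2 fold change was 1.33 (SE 0.140, adjusted p = 0.0399 by limma), and the adjusted p was 0.101 to 0.189 when any 1 library was left out. Its exons overlap those of Slc16a6 on the other strand, which was at 2089.8 and 2262 in WT against 2469.6 and 2281 in EpiKO. Naaa, an acid amidase, had a log2 fold change of -0.21.

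Of 15 tested further membrane proteins none was called (limma), and 3 had an unadjusted p under 0.05, beside 15.6% of all tested genes. For this list edgeR called none and DESeq2 called 1, Cd164, beside 6.85% of all tested genes. Cd164, a sialomucin of endosomes and lysosomes, was at 3945 and 2843 in WT against 7050.2 and 5919 in EpiKO, higher in both EpiKO libraries (log2 fold change 0.95 with an adjusted p of 0.113 by limma). Laptm4b and Tmem192 had log2 fold changes of 0.80 and -0.37. Lamp3 was listed at 0 in all 4 libraries.

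In the sorting list, Gnptab had the smallest p. Of 11 tested genes none was called (limma), and 4 had an unadjusted p under 0.05, beside 15.6% of all tested genes. For this list edgeR called none and DESeq2 called 3, Gnptab, Igf2r and Gga2, beside 6.85% of all tested genes. Gnptab, the phosphotransferase subunit that starts the mannose 6-phosphate tag, was at 2963 and 3459 in WT against 1900.1 and 1575 in EpiKO. Both EpiKO values lay below both WT values, at a log2 fold change of -0.89 (SE 0.147, 95% interval -1.26 to -0.51, adjusted p = 0.0733 by limma). Gga2, an adaptor for the tagged cargo at the Golgi, had a log2 fold change of -0.62 (adjusted p = 0.129 by limma). The cation-independent receptor Igf2r was at 2011 and 3876 in WT against 1574 and 1085 in EpiKO, at a log2 fold change of -1.09 beside a log2 difference of -0.95 between the WT libraries (replicate 1 minus replicate 2). M6pr, the other receptor of the tag, was picked with its values in view and not by the naming rule. Its log2 fold change was -0.14. Sort1, the sorting receptor sortilin, picked in the same way, was at 105 and 248 in WT against 1551 and 366 in EpiKO, with both EpiKO values the higher but far apart (log2 fold change 2.21 with an adjusted p of 0.276 by limma).

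When active at the lysosome, mTORC1 holds TFEB in the cytoplasm. The list of genes of mTORC1, its regulators and its partners there numbered 19 and included Mitf. None of the 19 was called by limma, edgeR or DESeq2. An unadjusted p under 0.05 was found for 3 of the 19, a share near the 15.6% of all tested genes. All 3 of these were lower in EpiKO. Besides Mitf they were Rptor, the mTORC1 scaffold, at a log2 fold change of -0.46 (adjusted p = 0.198 by limma), and Fnip1, a partner of folliculin, at -0.63 (adjusted p = 0.210 by limma). The 17 autophagy genes had a median log2 fold change of -0.071. None was called (limma), and 3 of the 17 had an unadjusted p under 0.05, a share near the 15.6% of all tested genes. For this list edgeR called none and DESeq2 called 1, Sqstm1, beside 6.85% of all tested genes. Sqstm1, the autophagy receptor p62, was at 11517 and 7934 in WT against 5040.3 and 6217 in EpiKO (log2 fold change -0.77 with an adjusted p of 0.198 by limma). Atg16l1 and Gabarapl2, which serve the conjugation that builds the autophagosome, had log2 fold changes of 0.41 and -0.47.

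The last 2 lists each held a gene that was called lower in EpiKO. The 18 tested V-ATPase subunits, which acidify the lysosome, had a median log2 fold change of -0.36, 16 of them negative, and a range from -3.41 to 0.46. One was called, Atp6v0d2, lower in EpiKO. An unadjusted p under 0.05 was found for 10 of the 18, 9 of them lower, beside 15.6% of all tested genes. The 9 cathepsins that were left out of the members ranged from -4.58 for Ctsk, the only one called and lower in EpiKO, to 0.57 for Ctsd, with a median of 0.042. The range was wider than the members' in 4 of the 7 lists. It was narrower in the lists of further membrane proteins, mTORC1 and its partners, and autophagy. Differences between lists were not tested.

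**Figure D5:**
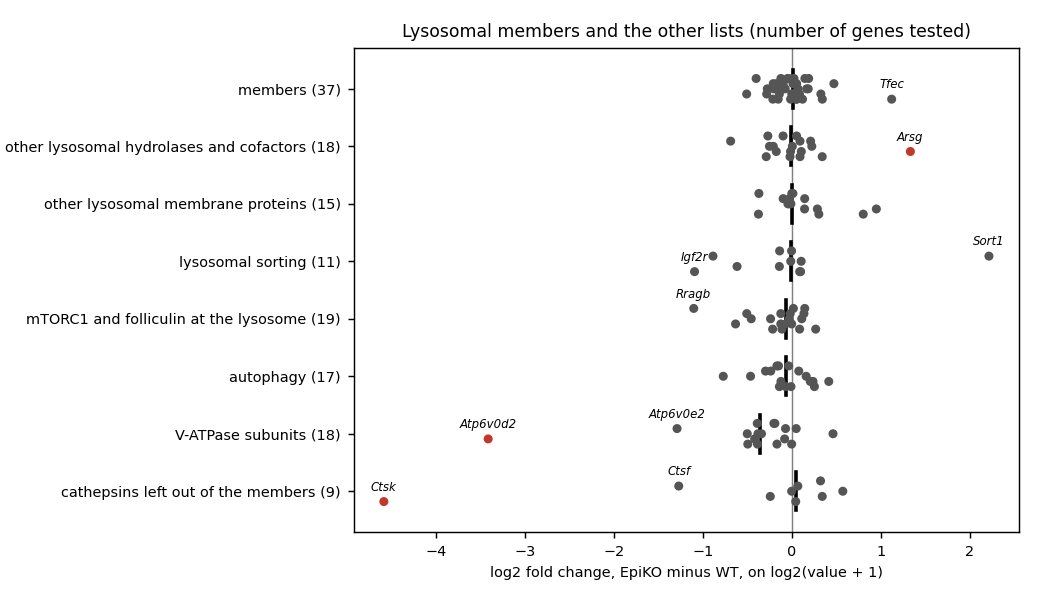
Log2 fold change (EpiKO minus WT, on log2(value + 1)) of every tested gene of the members and of 7 other lists, 1 point a gene, with the list's median as a vertical bar and the number of genes in brackets. Red points passed the adjusted threshold (limma) and genes beyond 1 either way are named; the members lie close to 0 apart from Tfec, and the V-ATPase subunits lie mostly left of 0.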

How the data were processed

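RNA was measured in 2 WT and 2 EpiKO libraries. Poly-A selected mRNA went into Illumina TruSeq libraries, per the labels' protocols. Per the submitters' processing notes, bcl2fastq 2.17, STAR 2.5.2b, featureCounts 1.5.0-p3, DESeq2 and build mm10 were used; annotation, strand and multi-mapping settings are not stated there. The authors deposited 1 signal value for each gene and library, which by its values is a read count over 1 scale factor of that library: dividing by what 1 read was worth gave whole reads for 100% of values (tolerance 1e-06 reads). One read was worth 0.841 to 1.16.

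Values were tested as log2(value + 1) by limma 3.58.1 in R 4.3.3 with trend and robust moderation, EpiKO against WT, two-sided, without covariates, Benjamini-Hochberg adjusted over the 12463 genes at 10 or more in at least 2 libraries; fold changes so computed understate changes of low genes. An exact permutation test of 2 against 2 cannot go below p = 0.333. On recovered reads edgeR 4.0.16 (TMM) and DESeq2 1.42.0 were alternatives, as were other pseudocounts, filters, scalings, a threshold of 0.1 and leaving out each library. The limma fit was checked on simulated data with changes larger than those of any member, so the check does not cover differences of the members' size. Members and lists were chosen with earlier results of these data known. Every member is named. Values per library are given for the 12 members of smallest p, the 3 transcription factors, and the 6 highest and 3 lowest members per kilobase. Of other lists up to 3 genes of smallest p are named, and Mitf; some are not reported here, and M6pr, Sort1 and the genes that share exons with a named gene were added with their values in view. Of 225 list entries 1 was matched by a synonym and 2 were not found. Places and exon lengths are from GENCODE M21 (mm10), and promoters from RefSeq (GRCm38.p6).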

Additional observations from a re-analysis of the deposited data

How the results depend on the processing

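Of 518 comparisons of a member's log2 fold change with its value under another setting, 484 kept direction and side of the threshold, 33 changed sign and 1, Tfec by DESeq2 at 1.13, passed the threshold. That setting gave 1 member called higher, in place of 0. No other setting called a member, and none called one lower. All sign changes were of members within 0.21 of 0. With equal library totals, log2 fold changes were -0.0031 for Asah1, -0.022 for Ctsa, -0.0059 for Ppt1 and -0.017 for Tfe3. With quantile normalization Ctsa was at -0.063. The other sign changes came from leaving out 1 library, with these ranges of log2 fold change: Cln3 (-0.16 to 0.13), Hexa (-0.29 to 0.0043), Glb1 (-0.21 to 0.057), Asah1 (-0.074 to 0.12), Arsb (-0.0047 to 0.34), Idua (-0.093 to 0.20), Naglu (-0.17 to 0.064), Man2b1 (-0.062 to 0.43), Gaa (-0.14 to 0.43), Npc1 (-0.067 to 0.13), Npc2 (-0.24 to 0.010), Pla2g15 (-0.48 to 0.060), Ctsa (-0.14 to 0.15), Tpp1 (-0.054 to 0.049), Ppt1 (-0.032 to 0.077), Grn (-0.19 to 0.12), Dnase2a (-0.052 to 0.19), Tfeb (-0.34 to 0.094), Tfe3 (-0.044 to 0.067). The members' median ran from -0.093 to 0.066 in those fits, lowest without EpiKO replicate 2. Of all tested genes 118 were called, against 38 by limma without trend, 854 by DESeq2 and 428 at a threshold of 0.1, and 0 to 4 when 1 library was left out, where the lone library is assumed to vary like the other group; fewer samples are part of that setting. No paired analysis was possible because the labels give no replicate numbers shared between the groups. With the same sign but moves of over 1.5 times when 1 library was left out, log2 fold changes were -0.42 to -0.15 for Sgsh, -0.34 to -0.075 for Smpd1, -0.26 to -0.090 for Manba, -0.41 to -0.020 for Acp2, 0.10 to 0.28 for Lamp1, 0.015 to 0.10 for Lamp2, 0.027 to 0.14 for Arsa, 0.0037 to 0.082 for Galns and -0.17 to -0.031 for Fuca1, besides Gla, Gm2a, Psap and Cd63, given above.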

Other observations

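Of the members, 4 lie on the X chromosome of mm10: Gla, Ids, Lamp2 and Tfe3, a grouping made after the values were seen. Gla and Ids are the members with the smallest unadjusted p among those lower in EpiKO, at log2 fold changes of -0.51 and -0.28. Lamp2 and Tfe3 were at 0.055 and 0.011.

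Of the 3 enzymes of heparan sulfate breakdown that remove sulfate and are named above, Ids and Sgsh had negative log2 fold changes of -0.28 and -0.28, while Arsg was at 1.33.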
